A study of Mus musculus with 35 samples.

Results

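The Kruppel-like factors described here are 10 genes of 1 transcription factor family, Klf2, Klf3, Klf4, Klf5, Klf6, Klf7, Klf9, Klf10, Klf11 and Klf13, taken by symbol from the 20261 genes measured in cells given DMSO or JNKi. All 10 symbols were found, among 17 genes whose symbol begins with Klf. The cells were NMuMG, an epithelial line from the mouse mammary gland, given by the labels as genotype WT and strain E9. Of the 35 samples of the series, 20 are used: JNKi and DMSO arms at 24, 48, 72 and 96 h and at 7 d, with 2 libraries in each of the 10 groups. JNKi is the labels' name for an agent against JNK, the c-Jun N-terminal kinase; its compound and dose are not stated there, and DMSO is the solvent control. The treatment protocol attached to all samples gives 2 ng/ml of transforming growth factor beta (TGF-β), and no group of this table is labelled as without it. The other 15 samples, a TGF-β course, were not analysed here. Libraries held 9492324 to 48584027 reads assigned to genes, and the labels do not say whether the 2 libraries of a group are separate cultures; the p-values given below therefore rest on a spread between libraries that may be technical only.

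Kruppel-like factors bind GC-rich and CACCC-containing DNA through zinc fingers at their C-terminus and differ in the rest of the protein. Klf2, Klf4, Klf5, Klf6 and Klf7 mostly activate, Klf3 represses through the corepressor CtBP, and Klf9, Klf10, Klf11 and Klf13 recruit the Sin3 histone deacetylase complex. In TGF-β-treated epithelium, such as NMuMG cells in their epithelial-mesenchymal transition, Klf4 is known as a keeper of epithelial genes such as Cdh1, which encodes E-cadherin, while Klf10 and Klf11 are known as TGF-β-inducible early genes. JNK phosphorylates Jun, a subunit of the factor AP-1.

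The line was epithelial by its keratins, Krt8 lying at 44774 to 209386 and Krt18 at 44049 to 134020 normalized reads over the 20 libraries, but 3 of the 7 epithelial markers, Epcam, Cldn3 and Cldn7, stayed at 12.6 normalized reads or lower. The deposited values are read counts divided by the authors' size factor of each library, called normalized reads below. Ptprc, the defining leukocyte marker, lay between 0 and 17.5 and Pecam1, the endothelial one, between 0 and 26.6 normalized reads. Other markers of the same lists were present in every library: Csf1r (leukocyte) at 439.4 to 880.3, and Flt1 and Cdh5 (endothelial) at 269 to 497.5 and 59.1 to 371.5. The rest of both lists reached at most 45.5, for Lyz2. Csf1r, Flt1 and Cdh5 thus made up most of the 2 sums given below. The summed level of the 7 epithelial markers was 144742 to 157319 in DMSO at 96 h, against 328364 to 346068 in DMSO at 24 h. That of the 7 mesenchymal markers, which include Vim, Fn1 and Acta2, was 483518 to 542450 in DMSO at 96 h, against 131195 to 139906 in DMSO at 24 h. Fn1 had the widest range in this sum, at 43252 to 482266 normalized reads over the 20 libraries, against 32656 to 81298 for Vim. Of the 7 mesenchymal markers 5 were called higher and 1 lower between these times by limma. The leukocyte sum was 476 to 598 in DMSO at 96 h, against 472 to 483 in DMSO at 24 h, and the endothelial sum 463 to 558 in DMSO at 96 h, against 467 to 539.7 in DMSO at 24 h. Of the 4 tested endothelial markers 2 were called higher and 1 lower between these times by limma. Of the 4 tested leukocyte markers 1 was called higher and 0 lower. In bulk RNA fewer cells of a type and less RNA per cell cannot be told apart, and the part of these marker changes in the results below was not tested.

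Per kilobase of exon in the GENCODE vM21 annotation, Klf6 was the highest of the 10, with a median over libraries of 2405 normalized reads per kilobase. Klf4 followed at 957, Klf10 at 563, Klf13 at 505 and Klf9 at 278 normalized reads per kilobase. Klf3 had a median of 174, Klf11 of 155, Klf5 of 127 and Klf7 of 31.5 normalized reads per kilobase. The ranges over libraries overlapped between each neighbouring pair in this order except Klf6 and Klf4, Klf5 and Klf7, and Klf7 and Klf2. Klf2, best known from endothelium and T cells, was near the limit of counting, at 2.44 normalized reads per kilobase.

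Klf2 had 1.2 to 10.1 normalized reads per library, which is 1 to 12 reads. The 534 olfactory and vomeronasal receptor genes in the table, which serve here as genes that a mammary line does not use, averaged 1.04 to 4.46 normalized reads per library, with a median of 0 in 19 of the 20 libraries. In JNKi cells Klf2 had 3.4 and 6.4 normalized reads (24 h), 1.7 and 2.5 (48 h), 7.3 and 4.8 (72 h), 5.1 and 4.0 (96 h) and 2.8 and 8.4 (7 d). DMSO cells gave 7.0 and 4.3 (24 h), 1.2 and 1.4 (48 h), 2.5 and 3.5 (72 h), 4.7 and 5.3 (96 h) and 10.1 and 6.8 (7 d). No order of the groups was read from these values. Klf2 was the 1 member that did not reach a mean of 10 normalized reads in any group, so 9 of the 10 members were tested.

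**Figure D1:**
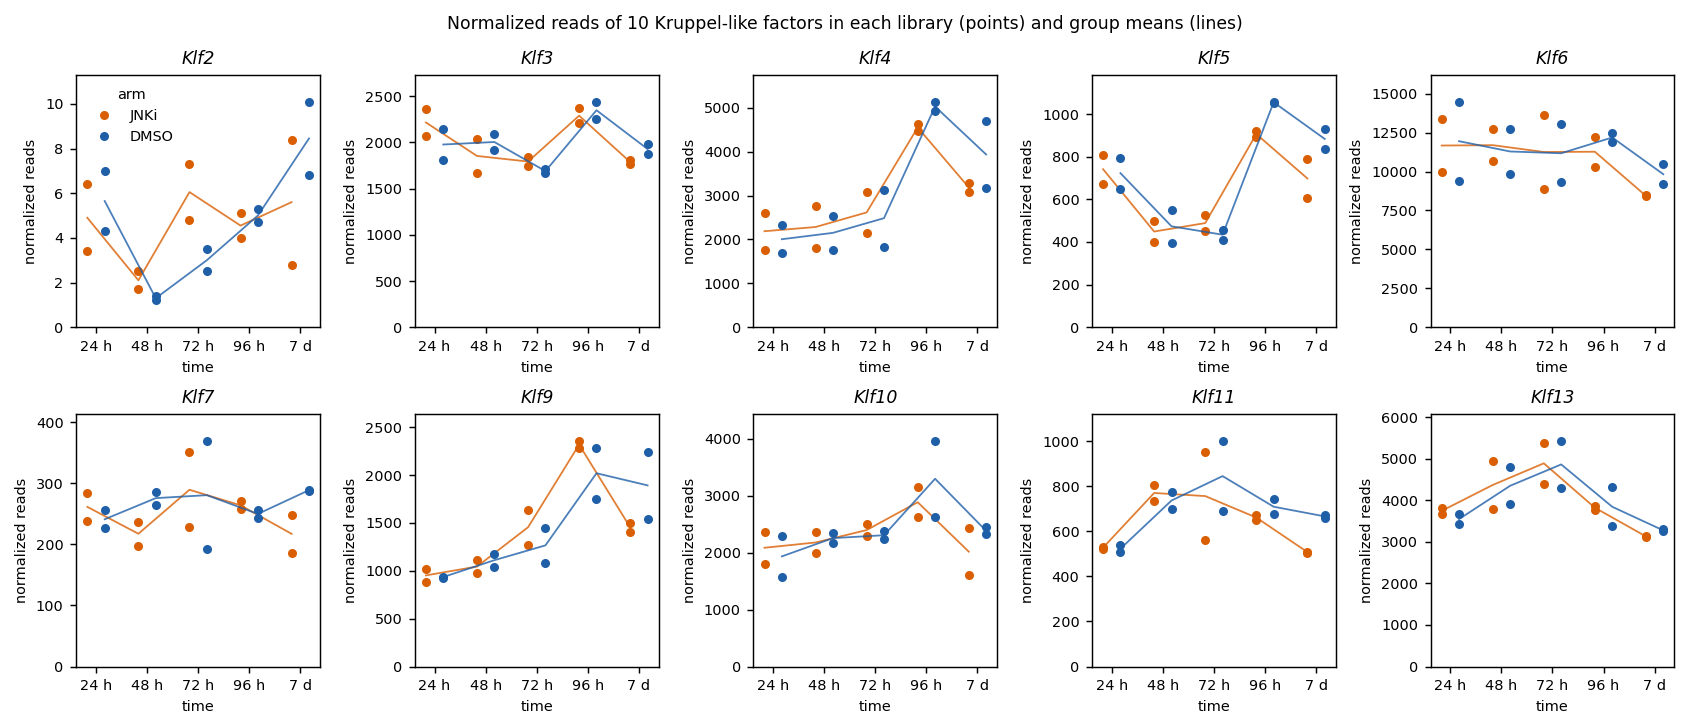
Normalized reads (y axis, from 0) of each of the 10 Kruppel-like factors against time (x axis, steps not to scale); each point is 1 library, lines join the group means, JNKi points stand left of DMSO points. Klf4 and Klf9 reach their highest JNKi and DMSO means at 96 h, Klf5 dips at 48 and 72 h, Klf13 is highest at 72 h in both arms, and Klf2 never exceeds 10.1.

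Klf4 and Klf9 were over 2-fold higher at 96 h than at 24 h in either arm. Klf4, the activator that maintains epithelial identity and is also a reprogramming factor, had 1771 and 2606 normalized reads in JNKi cells (24 h), 1809 and 2759.8 (48 h), 3078 and 2155 (72 h), 4643 and 4462 (96 h) and 3086 and 3288 (7 d). In DMSO cells Klf4 had 1684 and 2328 (24 h), 1761 and 2542 (48 h), 3135 and 1837 (72 h), 4919 and 5142 (96 h) and 4696 and 3179 (7 d). All 4 libraries at 96 h lay above all 12 libraries of the 3 earlier times, while those 12 overlapped among themselves.

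Klf4 was higher at 96 h than at 24 h in DMSO, with means of 5031 ± 158 and 2006 ± 456 normalized reads (SD, n = 2 each) and a log2 fold change of 1.34 (SE 0.27, adjusted p = 0.000419 by limma with Benjamini-Hochberg adjustment over 13896 genes). In JNKi cells the same comparison gave a log2 fold change of 1.08 (SE 0.27, adjusted p = 0.0027 by limma). At 7 d the DMSO log2 fold change over 24 h was 0.96 (SE 0.27, adjusted p = 0.00624 by limma), a call that ended when replicate 1 of DMSO at 24 h or at 7 d was left out (adjusted p up to 0.0976). The JNKi value at 7 d over 24 h was 0.57 (SE 0.27, adjusted p = 0.0852 by limma), which passed the threshold without JNKi 24 h replicate 2 (adjusted p = 0.0432).

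Klf9, which represses through Sin3 and is known as a target of glucocorticoid and thyroid hormone, had 1022 and 882 normalized reads in JNKi cells (24 h), 1110.2 and 978 (48 h), 1639 and 1271 (72 h), 2278 and 2357 (96 h) and 1406 and 1503 (7 d). DMSO cells had 940.3 and 929.8 (24 h), 1042 and 1179.6 (48 h), 1452 and 1079 (72 h), 1752 and 2286 (96 h) and 2244 and 1541 (7 d). Every library at 96 h and 7 d was above every library at 24 and 48 h. Its DMSO log2 fold change was 1.10 at 96 h over 24 h (SE 0.18, adjusted p = 4.22e-05) and 0.99 at 7 d over 24 h (SE 0.18, adjusted p = 0.000152), both by limma.

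In JNKi cells Klf9 rose by 1.29 on the log2 scale at 96 h over 24 h (SE 0.18, adjusted p = 1.04e-05 by limma). It was again lower at 7 d than at 96 h in JNKi cells, with a log2 fold change of -0.67 (SE 0.18, adjusted p = 0.00634 by limma). In DMSO cells the same 2 times gave -0.11 (SE 0.18, adjusted p = 0.668 by limma). Whether this change differed between the arms was not tested. Klf9 at 7 d over 24 h was still 0.61 higher on the log2 scale in JNKi cells (SE 0.18, adjusted p = 0.00673 by limma), a call lost without JNKi 24 h replicate 2 (adjusted p = 0.0667). The 96 h and 7 d libraries enter several of these contrasts, which are therefore not separate pieces of evidence.

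Over the 10 group means the profiles of Klf4 and Klf9 had a Pearson r of 0.957, the highest of the 36 pairs among the 9 tested members. Klf10 had an r of 0.808 with Klf4 and 0.806 with Klf9, and Klf11 and Klf13 had an r of 0.774. Klf5 and Klf13 ran opposite, with an r of -0.72. These are descriptions over 10 points that share libraries, times and 1 normalization, and they carry no p.

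**Figure D2:**
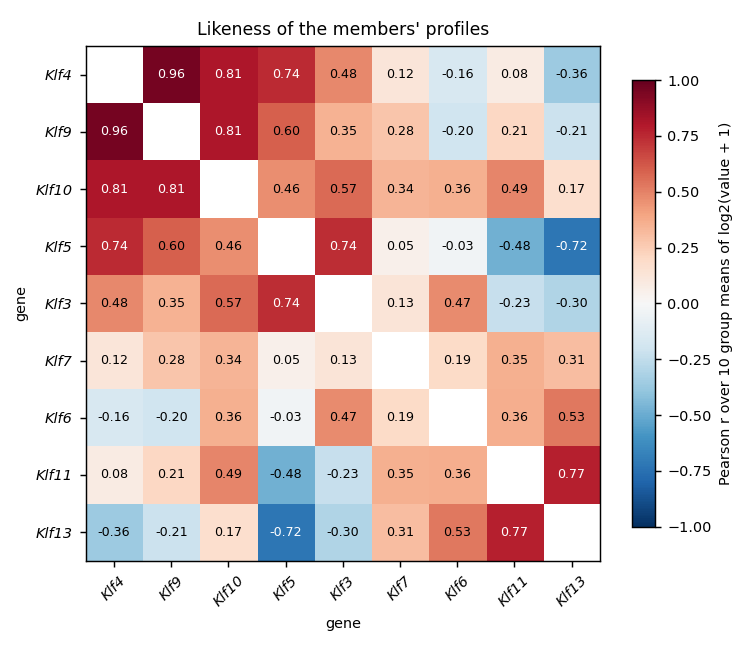
Pearson r of the 10 group means of log2(value + 1) for each pair of the 9 tested Kruppel-like factors, genes on both axes and r as colour and number. Klf4, Klf9 and Klf10 form a block with r of 0.81 to 0.96, and Klf11 with Klf13 a second one at 0.77.

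The 250 bases before the annotated start are shown for Klf4 and Klf9, which moved together, and for Klf13, which did not, from RefSeq on build GRCm38.p6; the deposited values were made on mm9, and no position below was carried over between builds. RefSeq promoters were found for 8 of the 10 members, and the 3 windows shown held no exon base of their own gene in GENCODE vM21. Exons of other genes were not looked for. Klf4 stands on the minus strand at chr4:55532476-55532725, Klf9 on the plus strand at chr19:23140976-23141225 and Klf13 on the minus strand at chr7:63938916-63939165. Capitals mark, on either strand, AP-1 sites (TGANTCA), CRE sites (TGACGTCA), CACCC boxes and GC boxes (GGGCGG). In Klf9 the AP-1 match and the CACCC box share 2 bases, in Klf4 the first pair of GC boxes share 1 base, and in Klf13 a GC box and the CACCC box share 1 base.
Klf4: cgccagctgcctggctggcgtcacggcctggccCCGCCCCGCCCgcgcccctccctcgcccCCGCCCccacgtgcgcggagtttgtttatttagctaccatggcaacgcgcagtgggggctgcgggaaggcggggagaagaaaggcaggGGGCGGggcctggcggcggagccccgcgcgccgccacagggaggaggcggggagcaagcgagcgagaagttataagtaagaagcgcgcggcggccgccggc
Klf9: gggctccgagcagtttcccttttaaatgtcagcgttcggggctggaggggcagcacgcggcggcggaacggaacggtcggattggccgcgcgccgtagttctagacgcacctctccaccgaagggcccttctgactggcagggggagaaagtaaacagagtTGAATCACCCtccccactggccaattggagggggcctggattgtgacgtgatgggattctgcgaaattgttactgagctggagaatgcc
Klf13: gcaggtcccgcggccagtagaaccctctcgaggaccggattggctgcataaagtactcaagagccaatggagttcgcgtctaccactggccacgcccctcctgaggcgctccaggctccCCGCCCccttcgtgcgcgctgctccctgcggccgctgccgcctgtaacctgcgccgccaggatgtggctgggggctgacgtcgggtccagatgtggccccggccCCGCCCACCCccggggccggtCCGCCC

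The promoters of Klf4 and Klf9 shared none of these motifs. Klf4 held 4 GC boxes and no CACCC box, AP-1 site or CRE, and Klf9 held 1 AP-1 match at -89 to -83, 1 CACCC box, 3 CCAAT boxes and no GC box. Klf13 held 3 GC boxes, 1 CACCC box and 2 CCAAT boxes. Of 32851 RefSeq promoters cut to the same length, 6.75% held an AP-1 match, 1.55% a CRE, 52.0% a CACCC box, 32.7% a GC box and 33.9% a CCAAT box, counting both strands. Among the 8 Kruppel-like factor promoters 1 held an AP-1 match, 0 a CRE, 5 a CACCC box, 7 a GC box and 4 a CCAAT box. Unlike the windows shown, some of these lay partly in exons of their own gene in GENCODE vM21. Of 250 bases this held for 133 in Klf3, 102 in Klf7, 97 in Klf11, 29 in Klf2 and 7 in Klf6. The GC content of the windows shown was 74% for Klf4, 59.6% for Klf9 and 71.6% for Klf13, against a median of 52.4% over all promoters. A match is a run of letters in this window and says nothing of binding.

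In the DMSO arm at 96 h against 24 h, 6 of the 9 tested members rose and none fell, where 63.3% of all 13896 genes passed the same test in either direction and 32.7% passed it upward. Klf4, Klf9, Klf10, Klf5, Klf11 and Klf3 passed, and the values of Klf6, Klf7 and Klf13 overlapped between the 2 times. All 9 log2 fold changes were above 0, where those of 7387 of the 13896 genes were. The median was 0.44 over the members and 0.07 over all genes tested. The count was 2 without DMSO 24 h replicate 2 and 3 without DMSO 96 h replicate 2, Klf4 and Klf9 staying called in each omission of 1 library. Klf3 and Klf11 also lost their calls with edgeR and with TMM rescaling, which left 4.

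Klf10, a TGF-β-inducible early gene whose product represses the inhibitory Smad7, had 2634 and 3964 normalized reads in DMSO at 96 h, against 2298 and 1573 in DMSO at 24 h. Its log2 fold change was 0.76 (SE 0.21, adjusted p = 0.00424 by limma), lost without DMSO 24 h replicate 2 or DMSO 96 h replicate 2 (adjusted p up to 0.0952). In JNKi cells Klf10 had 2627 and 3147 normalized reads at 96 h, against 2364 and 1810.1 at 24 h, a log2 fold change of 0.48 (SE 0.21, adjusted p = 0.0587 by limma). All libraries at 96 h stood above those at 24 h in both arms, and the difference between the arms in this change was not tested. At the times between, Klf10 kept to 2002 to 2507 normalized reads in JNKi cells and 2167 to 2375 in DMSO cells.

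Klf5, which drives proliferation in many epithelia and is degraded through the ubiquitin ligases Wwp1 and Fbxw7, went down before it went up. Its values in JNKi cells were 808 and 674 normalized reads (24 h), 499.7 and 398 (48 h), 452 and 525 (72 h), 919 and 894 (96 h) and 604 and 792 (7 d). In DMSO cells they were 796 and 650.2 (24 h), 551 and 396 (48 h), 458 and 411 (72 h), 1058 and 1052 (96 h) and 931 and 836 (7 d). The 8 libraries at 48 and 72 h lay below the other 12 without overlap.

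Against 24 h in DMSO, Klf5 fell by 0.62 on the log2 scale at 48 h (SE 0.17, adjusted p = 0.0113) and by 0.73 at 72 h (SE 0.17, adjusted p = 0.00211), and rose by 0.55 at 96 h (SE 0.17, adjusted p = 0.00876), all by limma. From the low values at 72 h the step to 96 h was 1.28 on the log2 scale (SE 0.17, adjusted p = 2.69e-05 by limma). The 48 h call was lost without DMSO 24 h replicate 1 or DMSO 48 h replicate 2 (adjusted p up to 0.17), and the 96 h call without DMSO 24 h replicate 2 (adjusted p = 0.1). At 48 h Klf5 was the 1 member called of 9, where 28.4% of all genes were called, so that either omission left 0. Leaving out any 1 of the 4 libraries at 72 h instead gave 2, with Klf11 as the second (0.49 on the log2 scale and adjusted p = 0.0572 by limma with all libraries).

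The step between 72 and 96 h in DMSO raised 4 of the 9 members, Klf5, Klf3, Klf4 and Klf9, and lowered none. Of all 13896 genes 36.6% were called in either direction, 2199 genes higher and 2886 lower. Klf4 rose by 1.07 (SE 0.27, adjusted p = 0.00579), Klf9 by 0.68 (SE 0.18, adjusted p = 0.00618) and Klf3 by 0.47 (SE 0.10, adjusted p = 0.00181) on the log2 scale, by limma. Klf4 lost the call without DMSO 72 h replicate 2 (adjusted p = 0.0955), as did Klf9 without that library or DMSO 96 h replicate 2 (adjusted p up to 0.0974). This comparison was chosen after the values were seen and shares the 96 h libraries with the one above.

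Klf11 and Klf13 followed another course, highest at 72 h in DMSO. Klf11, the second TGF-β-inducible early gene, had 523 and 532 normalized reads in JNKi cells (24 h), 733 and 806 (48 h), 952 and 559.9 (72 h), 672 and 649.8 (96 h) and 510.2 and 505 (7 d). Klf11 in DMSO cells had 507 and 538 (24 h), 698 and 775 (48 h), 1001 and 688 (72 h), 676 and 742 (96 h) and 672 and 660.3 (7 d). JNKi cells at 7 d were just under their 24 h libraries, while DMSO cells at 7 d were above their 24 h libraries.

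Klf13, known as an activator of Ccl5 in T cells, had 3683 and 3812 normalized reads in JNKi cells (24 h), 3790.4 and 4951 (48 h), 5389.9 and 4394 (72 h), 3865 and 3779.8 (96 h) and 3147 and 3118 (7 d). In DMSO cells it had 3431 and 3667 (24 h), 3902 and 4799.8 (48 h), 5432 and 4299 (72 h), 3375 and 4316 (96 h) and 3301 and 3254 (7 d). The 4 libraries at 7 d lay below the other 16, JNKi below DMSO.

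At 72 h against 24 h in DMSO 3 of the 9 members were called, where 46.8% of all genes were: Klf11 rose by 0.67 (SE 0.19, adjusted p = 0.00769) and Klf13 by 0.45 (SE 0.14, adjusted p = 0.018) on the log2 scale, and Klf5 fell as given above, all by limma. Both rises rested on DMSO 72 h replicate 1. Without it the count was 1, with Klf11 at an adjusted p of 0.129 and Klf13 at 0.194, and Klf13 also lost the call without DMSO 24 h replicate 1. Klf11 at 96 h over 24 h in DMSO had a log2 fold change of 0.44 (SE 0.19, adjusted p = 0.0492), which was past the threshold in only 4 of the 20 fits that left out 1 library, with adjusted p up to 0.193.

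Klf3, the CtBP-binding repressor first found in erythroid cells, moved within a narrow band of 1671 to 2441 normalized reads over all 20 libraries. In JNKi cells it had 2357 and 2074 (24 h), 2035 and 1671 (48 h), 1748 and 1838 (72 h), 2210 and 2368 (96 h) and 1766 and 1809 (7 d). In DMSO cells it had 2145 and 1809 (24 h), 2086 and 1922 (48 h), 1671 and 1708 (72 h), 2441 and 2255 (96 h) and 1986 and 1870.2 (7 d). In both arms the libraries at 96 h lay above those at 72 h and at 7 d without overlap.

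Its replicates lay close, with a median coefficient of variation of 5.24% over the 10 groups, and its SE was the smallest of the 9. Klf3 fell by 0.28 on the log2 scale at 7 d against 96 h in DMSO (SE 0.10, adjusted p = 0.0402), the 1 member called in that comparison, where 36.5% of all genes were called. The call was lost without any 1 of the 4 DMSO libraries at 96 h and 7 d or either JNKi library at 7 d (adjusted p up to 0.203). In JNKi cells Klf3 fell by 0.36 at 7 d against 96 h (SE 0.10, adjusted p = 0.0117) and by 0.31 at 7 d against 24 h (SE 0.10, adjusted p = 0.0173). The first was lost without JNKi 96 h replicate 2 or JNKi 7 d replicate 1 (adjusted p up to 0.0978), the second without JNKi 24 h replicate 1 or either JNKi library at 7 d (adjusted p up to 0.153). At 96 h over 24 h in DMSO its rise of 0.25 (SE 0.10, adjusted p = 0.0414) was lost without DMSO 24 h replicate 2, either DMSO library at 96 h or either JNKi library at 7 d (adjusted p up to 0.371). All of these values are by limma.

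Klf6 and Klf7 passed the test in no comparison with time. Klf6, a broadly expressed activator known as a tumour suppressor, ranged from 8399 to 14491 normalized reads, and its replicates differed as much as its times. In JNKi cells it had 9979.5 and 13359.6 (24 h), 10648 and 12738 (48 h), 13648 and 8862 (72 h), 12243 and 10299.8 (96 h) and 8399 and 8472 (7 d). In DMSO cells it had 9407 and 14491 (24 h), 9838 and 12738 (48 h), 13022 and 9326 (72 h), 11908 and 12466 (96 h) and 10469 and 9183 (7 d). Both JNKi libraries at 7 d lay below the other 18.

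Klf7, a close relative of Klf6 known from neurons, had the lowest level per kilobase of the 9 and lay between 186 and 369 normalized reads. In JNKi cells it had 284 and 238 (24 h), 237 and 198 (48 h), 351 and 228 (72 h), 270.3 and 258 (96 h) and 186 and 248 (7 d). DMSO values of Klf7 were 256 and 226 (24 h), 265 and 286 (48 h), 369 and 192 (72 h), 256 and 244 (96 h) and 289.5 and 288 (7 d). No 2 neighbouring groups in the order of its means were free of overlap.

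At 7 d against 24 h in DMSO, Klf4 and Klf9 were the 2 of 9 members called, both higher, where 59.9% of all genes were called and 32% were called upward. Without DMSO 7 d replicate 1 the count was 1. Between these times all 4 tested leukocyte markers and 3 of 4 tested endothelial markers were higher in DMSO, the leukocyte sum being 857 to 948 normalized reads at 7 d, against 472 to 483 at 24 h, and the endothelial sum 687 to 741 at 7 d, against 467 to 539.7 at 24 h. The epithelial sum was 131061 to 166271 at 7 d, against 328364 to 346068 at 24 h, and the mesenchymal sum 264809 to 299297 at 7 d, against 131195 to 139906 at 24 h, and the part of these shifts was not tested. In JNKi cells 2 of 9 were called at the same times, Klf9 higher and Klf3 lower, where 58% of all genes were called, and without either JNKi library at 7 d the count was 1. The leukocyte markers were again higher for 4 of 4 and the endothelial ones for 3 of 4 there. The receptor genes had 90.4 and 89.8 RPM in JNKi at 7 d, against 21.5 and 19.1 RPM at 24 h, and the part of these shifts was not tested either. At 96 h against 24 h in JNKi cells 2 of 9 were called, Klf4 and Klf9, both higher, where 59.8% of all genes were called and 30.8% upward.

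All 9 members were lower at 7 d than at 96 h in JNKi cells, where 44.1% of all genes had a log2 fold change below 0, and each was lower without overlap, where 32.8% of all genes were. The median log2 fold change was -0.39 over the members and 0.07 over all genes. Of these, Klf3, Klf9 and Klf10 passed the test, where 39.7% of all genes were called and 16.6% were called lower. Klf10 had 1603 and 2434 normalized reads in JNKi cells at 7 d, against 2627 and 3147 at 96 h, a log2 fold change of -0.54 (SE 0.21, adjusted p = 0.0481 by limma). That call was lost in 13 of the 20 fits that left out 1 library (adjusted p up to 0.467), and the count was 1 without JNKi 96 h replicate 2 or JNKi 7 d replicate 1. In DMSO cells 8 of the 9 log2 fold changes between these times were below 0, with a median of -0.26, Klf7 being the exception. Over all 13896 genes 7667 of these DMSO values were above 0, with a median of 0.06. The JNKi comparison was added after the values were seen, and JNKi 7 d replicate 1 is the shallowest of the 20 libraries.

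Markers moved over the same step in JNKi cells. The summed mesenchymal markers were 148220 to 157315 normalized reads at 7 d, against 339815 to 342648 at 96 h, although 4 of the 7 were called higher and 2 lower, and the epithelial sum was 98704 to 105785 at 7 d, against 126027 to 133466 at 96 h. The leukocyte sum was 884 to 893 at 7 d, against 618 to 746 at 96 h, with 3 of 4 tested markers higher, and the endothelial sum was 682 to 703 at 7 d, against 433 to 524 at 96 h, with 2 of 4 higher. Reads on the olfactory and vomeronasal receptor genes were 90.4 and 89.8 RPM at 7 d, against 60.0 and 61.7 RPM at 96 h. The part of these shifts in the members' values was not tested.

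**Figure D3:**
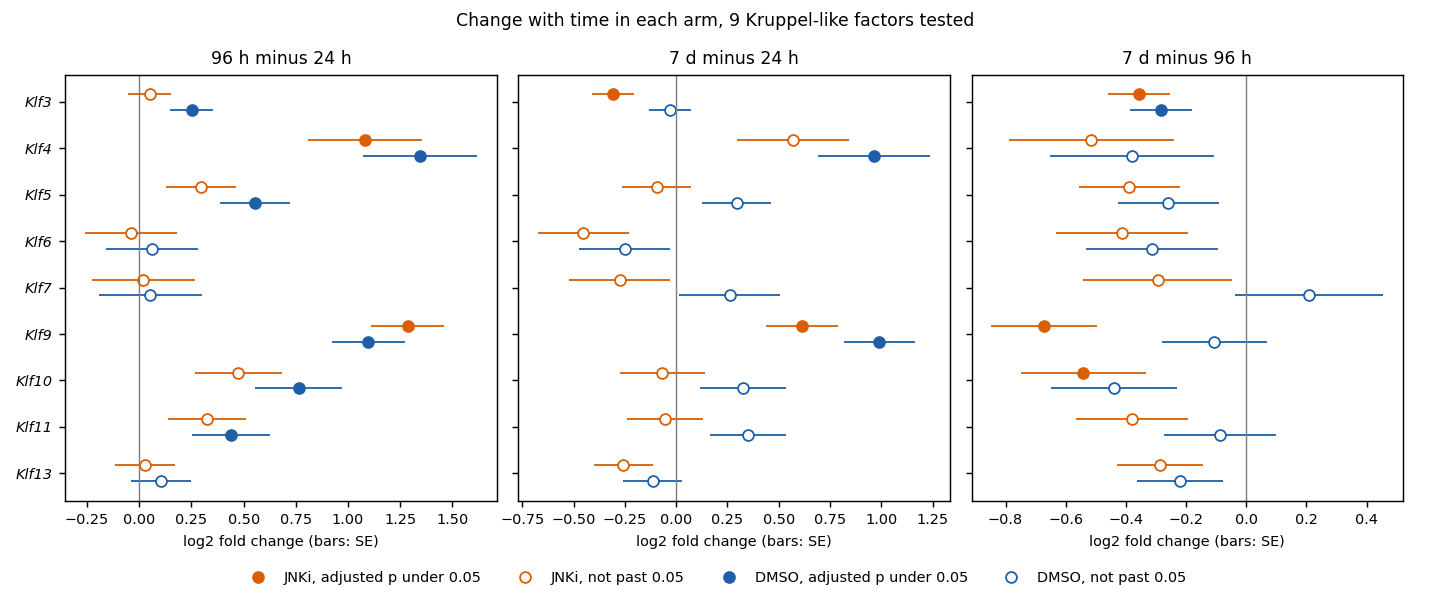
Log2 fold change (x axis) of the 9 tested Kruppel-like factors (rows) between times within each arm, JNKi above DMSO in each row; bars are the model's SE and filled points have an adjusted p under 0.05. Klf4 and Klf9 lie between 1.08 and 1.34 at 96 h against 24 h in both arms, and all 9 JNKi points lie below 0 at 7 d against 96 h.

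JNKi and DMSO cells were set against each other at each time to read the response to the inhibitor. No member was called between JNKi and DMSO at any of the 5 times by limma, and none at an unadjusted p under 0.05, nor by edgeR or DESeq2 on reads recovered from the deposited values. Few genes of any kind were called before 7 d, with 0% (24 h), 0% (48 h), 0.072% (72 h) and 0.0072% (96 h), and 10.2% at 7 d. At 24 to 96 h same-numbered JNKi and DMSO libraries deviated together, with r of 0.73, 0.59, 0.72 and 0.53. The test took no account of this, so few calls do not show that few genes differed. In a fit that paired libraries by number within each time, the lowest adjusted p of a member before 7 d was 0.28 by limma, for Klf11 at 72 h. Of the 1414 genes called at 7 d, 673 were higher in JNKi cells and 741 lower, and 572 were higher and 959 lower after TMM rescaling.

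Before 7 d the log2 fold changes of the 9 members lay between -0.35, for Klf7 at 48 h, and 0.21, for Klf9 at 96 h. Klf4, for instance, had a log2 fold change of 0.12 at 24 h (95% confidence interval -0.46 to 0.70) and of -0.14 at 96 h (-0.72 to 0.43). Klf3, the tightest member, had 0.17 at 24 h (-0.05 to 0.38) and -0.04 at 96 h (-0.25 to 0.18). These intervals leave room for changes of a size that this design would not call.

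At 7 d all 9 members were lower in JNKi than in DMSO cells, also with TMM or upper quartile rescaling, where 47% of all genes had a log2 fold change below 0, and 7 of the 9 were lower without overlap between the groups, where 26.2% of all genes were. The JNKi libraries at 7 d also enter the comparison with 96 h above, so these are not separate pieces of evidence. JNKi 7 d replicate 1 is the shallowest library here too. The median over the members was -0.28 and over all genes 0.02, and no member passed the test, with adjusted p of 0.191 to 0.808 by limma. Klf11 had 510.2 and 505 normalized reads in JNKi cells, against 672 and 660.3 in DMSO cells, a log2 fold change of -0.39 (95% confidence interval -0.78 to 0.0025, adjusted p = 0.191 by limma). Klf9 had 1406 and 1503 in JNKi cells, against 2244 and 1541 in DMSO cells, a log2 fold change of -0.36 (-0.73 to 0.015, adjusted p = 0.207 by limma). Without DMSO 7 d replicate 2 the Klf9 value was -0.63 (adjusted p = 0.0437 by limma), and the count of members called was then 1.

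Klf5 had 604 and 792 normalized reads in JNKi cells at 7 d, against 931 and 836 in DMSO cells, a log2 fold change of -0.35 (-0.71 to 0.0047, adjusted p = 0.193 by limma). Klf7 had 186 and 248, against 289.5 and 288 in DMSO cells, a log2 fold change of -0.42 (-0.95 to 0.097, adjusted p = 0.287 by limma). Klf6, Klf3 and Klf13 were also lower without overlap, with log2 fold changes of -0.22, -0.11 and -0.07. Klf4 and Klf10 overlapped: Klf4 had 3086 and 3288 in JNKi cells against 4696 and 3179 in DMSO cells, and Klf10 had 1603 and 2434 against 2323 and 2445.

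**Figure D4:**
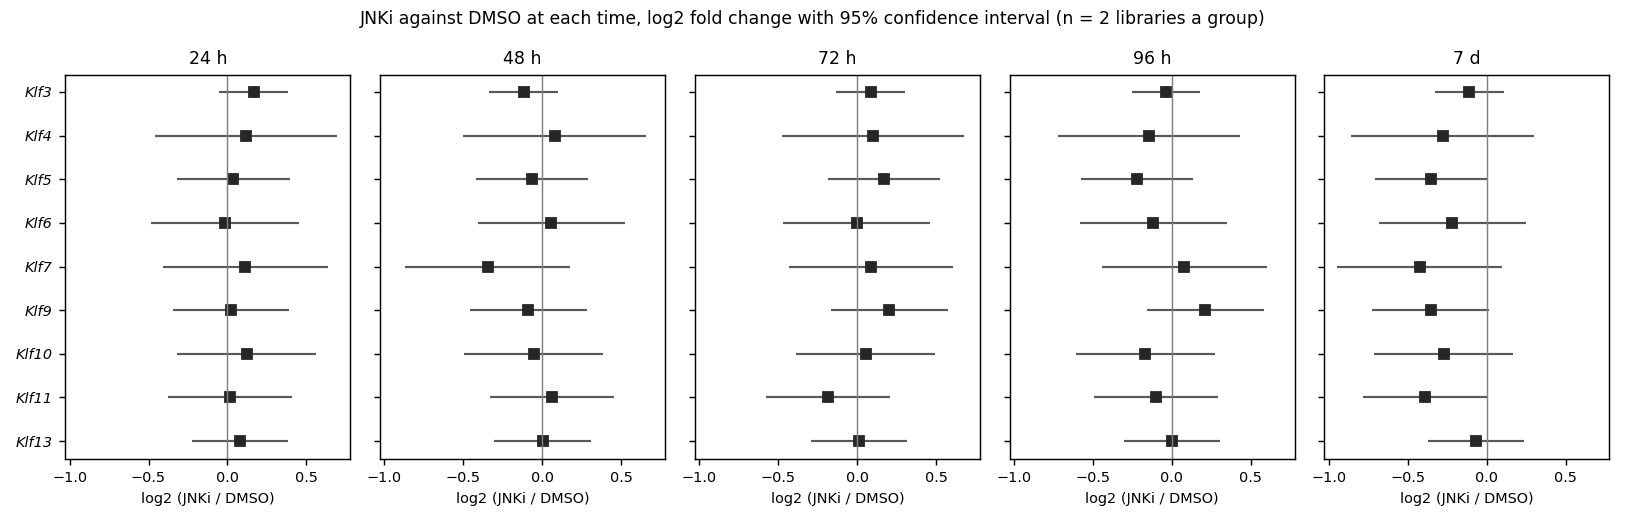
Log2 fold change of JNKi over DMSO (x axis, squares) with its 95% confidence interval (lines) for the 9 tested Kruppel-like factors (rows) at each of the 5 times, n = 2 libraries a group. All 45 intervals include 0, and at 7 d all 9 squares lie below 0.

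Averaged over the 5 times, the log2 fold change of JNKi over DMSO lay between -0.12, for Klf11, and 0.01, for Klf13, and 0 of 9 members were called by limma, edgeR or DESeq2, where 4.77% of all genes were called by limma. None had an unadjusted p under 0.05. The intervals were narrower here, at -0.10 to 0.09 for Klf3, -0.28 to 0.23 for Klf4 and -0.17 to 0.16 for Klf9. The difference between the effect at 7 d and the mean effect at 24 to 96 h was below 0 for all 9 members, with 0 called by limma, edgeR or DESeq2 where limma called 3.34% of all genes. Over all 13896 genes the difference was above 0 for 7215, with a median of 0.01. That difference shares its 7 d libraries with the comparison at 7 d alone and is not separate from it. Klf9 was the 1 member with an unadjusted p under 0.05 in that test, at -0.44 (SE 0.20, unadjusted p = 0.0376, adjusted p = 0.22 by limma), and it was called without DMSO 7 d replicate 2 (adjusted p = 0.0492).

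Markers moved between the arms at 7 d as well. The summed epithelial markers, mostly Krt8 and Krt18, were 98704 to 105785 normalized reads in JNKi cells and 131061 to 166271 in DMSO cells, with Epcam, Cldn3 and Cldn7 at or near 0 in both. Of the 5 epithelial markers tested 1 was called lower and 0 higher, and 3 had a log2 fold change above 0, with a median of 0.04. The lower sum was therefore not shared by most of them. The summed mesenchymal markers were 148220 to 157315 in JNKi cells and 264809 to 299297 in DMSO cells. Of these 7 markers 3 were called lower and 0 higher by limma. The summed leukocyte markers, mostly Csf1r, were 884 to 893 in JNKi cells and 857 to 948 in DMSO cells, and the endothelial ones, mostly Flt1 and Cdh5, 682 to 703 in JNKi cells and 687 to 741 in DMSO cells. Reads on the olfactory and vomeronasal receptor genes were 90.4 and 89.8 RPM in JNKi cells and 73.6 and 63.2 RPM in DMSO cells. The part of these shifts in the members' values was not tested.

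Outside the family, the genes whose 10 group means were most like a member's were taken from 11599 genes with a mean of at least 50 normalized reads in some group. Nearest to Klf4 were Ero1l, Lmbrd1 and Ankrd12, with r of 0.994, 0.992 and 0.992, and nearest to Klf9 were AW146154, Foxo3 and Osbpl8, with r of 0.986, 0.984 and 0.983. Among the genes nearest to Klf10 were Neo1 and Maml1, with r of 0.984 and 0.983. For Klf11 they were Tnc, Csnk1e and Il11, with r of 0.979, 0.975 and 0.967, and for Klf13 Extl3, Jarid2 and Ltbp1, with r of 0.987, 0.968 and 0.955. Klf5 had Adal, Rpusd4 and Tmem209, with r of 0.960, 0.957 and 0.953, Klf6 had Wtap, Bzw2 and Smek1, with r of 0.971, 0.967 and 0.965, and Klf3 had Il28ra, Agk and Cdc42se2, with r of 0.952, 0.930 and 0.930. Nearest to Klf7, Lnpep, Gatad2b and Iah1 reached 0.814, 0.802 and 0.790. With so many genes and 10 points, high values of r arise in large numbers, and they are descriptions only.

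The factors that act with or on the family were read from lists of known genes, given as counts beside the share of all genes called. At 96 h against 24 h in DMSO, where 63.3% of all genes were called, the cofactors and ubiquitin ligases of Kruppel-like factors had 5 of 16 higher and 6 lower, with a median log2 fold change of -0.04 against 0.07 over all genes. Smurf1, a ubiquitin ligase of TGF-β signalling, had means of 7398 ± 330 normalized reads at 96 h and 3808 ± 32.3 at 24 h (SD, n = 2 each), a log2 fold change of 0.96 (adjusted p = 1e-07 by limma). Ep300, an acetyltransferase coactivator, rose by 0.64 on the log2 scale (adjusted p = 7.7e-06 by limma). Fzr1, an activator of the anaphase-promoting complex, fell by 0.64 (adjusted p = 3.09e-06), and Hdac1, the deacetylase that Sin3 carries, fell by 0.71 (adjusted p = 5.12e-06), both by limma.

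Among the other Kruppel-like and Sp family members 9 of 16 could be tested, with a median log2 fold change of 0.49. Of these 9, 5 had a log2 fold change above 0, and 1 was called higher and 1 lower. Klf1, Sp7 and Sp9 lay near the floor, at 5.6 to 15.8, 1.4 to 19.6 and 0 to 25.2 normalized reads over the 20 libraries. The median is therefore not a rise shared by the list. Sp4 was higher, by 0.53 (adjusted p = 0.00521 by limma, and 0.054 without DMSO 96 h replicate 2). Sp2 was lower, at -0.35 (adjusted p = 0.0454 by limma, and up to 0.294 when 1 library was left out, which ended the call for 9 of the 20). Of the kinase cascade that induces Klf2 and Klf4 in endothelium, MEK5, ERK5 and the MEF2 factors, 3 of 7 tested were higher and none lower, with a median of 0.21. Mef2a rose by 0.94 (adjusted p = 2.11e-06) and Mef2d by 0.46 (adjusted p = 0.000404) on the log2 scale, by limma. Of reported target genes 1 of 17 was higher, Col1a1 by 0.85 (adjusted p = 0.000117), which also stands among the mesenchymal markers, and 5 were lower, with a median over the list of -0.10. Among those 5 were Ccnb1, a mitotic cyclin, at -1.69 (adjusted p = 1.72e-07) and Tgfbr1, the type I receptor of TGF-β, at -1.15 (adjusted p = 4.33e-06), all by limma.

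Between JNKi and DMSO at 7 d, where 10.2% of all genes were called, 0 of the 9 other family members were called by limma, edgeR or DESeq2, 1 of them by limma with an unadjusted p under 0.05. The medians were -0.04 for them, -0.08 for the cofactors, 0.03 for the cascade and 0.01 for the targets, against 0.02 over all genes. Of the cofactors 2 of 16 were lower, Hdac2 at -0.34 (adjusted p = 0.0178) and Ctbp2, a corepressor partner of Klf3, at -0.36 (adjusted p = 0.0418) on the log2 scale. Of the cascade 2 of 7 were lower, Mef2a at -0.40 (adjusted p = 0.0312) and Map2k5, which encodes MEK5, at -0.32 (adjusted p = 0.0463). Of the targets 2 of 17 were higher, Ccnd1, a cyclin of the G1 phase, by 0.64 (adjusted p = 0.00658) and Cdkn1a, a cell cycle inhibitor that Klf4 and Klf6 activate, by 0.54 (adjusted p = 0.0136), and Tgfb1 was lower at -0.31 (adjusted p = 0.025), all by limma. Each of these 7 calls was lost without at least 1 of the 20 libraries: Ccnd1 without JNKi 7 d replicate 1 (adjusted p = 0.0564), Cdkn1a, Tgfb1 and Mef2a without DMSO 7 d replicate 1 or either JNKi library at 7 d (adjusted p up to 0.202, 0.165 and 0.296), Hdac2 without any 1 of the 4 libraries at 7 d (adjusted p up to 0.131), and Ctbp2 without 6 and Map2k5 without 13 of the 20 in turn (adjusted p up to 0.211 and 0.273).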

How the data were processed

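RNA sequencing of 20 libraries was used, 10 groups of 2, grouped by the sample titles. TopHat, HTSeq and DESeq, with build mm9, are named without versions in the labels, per the submitters' processing notes. The values the authors deposited are a signal, namely counted reads over a size factor for each library, and 100% of the values were whole multiples, within 0.1, of what 1 read is worth in the library, which gave the depths. Whether counting used strand is not given in the sources used here. The TGF-β course was not used, because its values are split at the decimal point. Deposited values were tested as log2(value + 1) with limma 3.58.1 in R 4.3.3 (intensity trend, 10 group means, all 20 libraries, two-sided) over 13896 genes whose mean reached 10 in some group, with Benjamini-Hochberg adjustment and 0.05 as the threshold. Fold changes are on that scale, which understates low genes. The test ran on simulated data first. All 10 members are named, and from each list up to 2 genes per direction by adjusted p; the members and lists were chosen with earlier results of these data known. Alternatives included edgeR 4.0.16 and DESeq2 1.42.0. 1 of the genes most like a member in profile is not reported here.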

Additional observations from a re-analysis of the deposited data

How the results depend on the processing

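Values are counts of the 9 tested members called, unless stated. With only the compared groups in the model the count was 0 at 48 h and 1 at 72 h against 24 h in DMSO, 0 at 7 d against 96 h in DMSO, 5 at 7 d and 4 at 96 h against 24 h in JNKi, 8 at 7 d against 96 h in JNKi, and 1 for JNKi against DMSO at 7 d; such fits rest on 2 residual degrees of freedom. Upper quartile rescaling gave 2 at 48 h, and no filter or no trend gave 0 for DMSO at 7 d against 96 h. Leaving out 1 library in turn gave 0 to 2 at 48 h, 1 to 4 at 72 h, 2 to 6 at 96 h and 1 to 3 at 7 d against 24 h in DMSO, 0 to 1 at 7 d against 96 h in DMSO, 1 to 2 at 7 d against 24 h and 1 to 4 at 7 d against 96 h in JNKi, 0 to 1 for JNKi against DMSO at 7 d, and 0 to 1 for the difference between 7 d and earlier effects. The cause of these moves was not tested. Deviations of same-numbered JNKi and DMSO libraries correlated at 0.726, 0.591, 0.723, 0.527 and 0.0724 from 24 h to 7 d over 9605 genes. Because the value at 7 d was near 0, the numbers were not taken to pair the samples. At 24 to 96 h same-numbered libraries did deviate together, and the intervals given for JNKi against DMSO include that shared spread. For Klf4 the SE of JNKi against DMSO at 24 h was 0.27 without and 0.11 with a replicate block within each time. A fit with a replicate block within each time gave 3 members lower in JNKi at 7 d (Klf5, Klf7 and Klf11), 1 averaged over the 5 times (Klf11) and 2 for the difference (Klf9 and Klf11), and a replicate block by number over all libraries gave 0 in each and moved no count between times by over 1.5 times; over all genes the block within each time called 3522 at 7 d against 1414. Of 4653 recomputed member values 139 changed their call, 83 lost and 56 gained, and no called value changed sign. Klf2 passed at 48 h against 24 h in DMSO without the filter (adjusted p = 0.0431 by limma), on 1 read in each 48 h library. Over all genes, JNKi against DMSO at 24 h and 48 h gave 0 calls by limma and edgeR and 1 and 2 by DESeq2, with 610 and 521 genes at an unadjusted p under 0.05.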
